A study of Rattus norvegicus with 15 samples.

Results

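The 9 genes Gria1 to Gria4 and Grik1 to Grik5 encode the subunits of AMPA and kainate receptors, and their reads were followed through rat hippocampus and cortex after stimulation of the vagus nerve (VNS). Genes were matched by symbol to RefSeq transcript records, which gave 16 records of 18278 in each count table, 8 for the AMPA and 8 for the kainate subunits. The hippocampal tables held 7 libraries, 3 from control rats that carried a sham device and 4 from rats stimulated for 30 min a day over 4 days. From day 2 to day 4 the hippocampal rats of both groups were also given a novelty preference task of 10 min. The cortex tables held 8 libraries, 4 VNS and 4 control, made from polyA-selected RNA, whereas the hippocampal libraries were made from ribosome-depleted total RNA. The sources used here do not give strain, age or sex, and nothing ties a library to a litter or day, so p-values measure the spread between these libraries.

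AMPA and kainate receptors are ion channels opened by glutamate, each assembled from 4 subunits. AMPA receptors carry most of the fast excitatory current at synapses of the forebrain, and their insertion and removal underlies forms of synaptic plasticity studied in the hippocampus. Kainate receptors act on both sides of the synapse, where they tune transmitter release and the excitability of neurons such as the CA3 pyramidal cells. AMPA subunit genes carry a pair of mutually exclusive exons, called flip and flop, which encode part of the ligand-binding domain.

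Hippocampal libraries held 16728486 to 51463555 counts, with 4268626 to 42355213 in mRNA records, and the lowest of both was VNS library 3, in which ribosomal RNA held 73.1% of counts. The libraries labelled hippocampal control 1 and 2 stood apart in regional marker genes. In them the forebrain neuronal factor Neurod6 was at 0.65 and 1.05 CPM (counts scaled to a common library size) and in the other 5 at 58.9 to 207.4 CPM. Slc17a7, the glutamate transporter of forebrain excitatory synapses, was at 237.2 and 4.09 CPM against 1006 to 1540 CPM, and Slc17a6, its counterpart in thalamus and brainstem, at 379.7 and 347.4 CPM against 10.0 to 66.8 CPM. Prkcd, abundant in thalamic neurons, was at 794 CPM in control 1, 11.8 CPM in control 2 and 6.19 to 41.2 CPM in the rest. The summed level of 7 forebrain excitatory neuron markers was 248.3 and 14.5 CPM in controls 1 and 2 and 1316 to 2077 CPM in the others. The 9 dentate gyrus and CA field markers summed to 303.2 and 134.7 CPM against 681.2 to 1149 CPM, which goes against the hippocampal label of these 2 libraries. Among these markers the dentate gene Prox1 was at 15.3 CPM in control 2 but at 89.8 CPM in control 1, inside the 80.0 to 163.8 CPM of the other 5. The 6 thalamic markers summed to 1352 and 408.6 CPM against 25.4 to 135.6 CPM. They include Slc17a6, which alone was at 347.4 CPM of the 408.6 CPM in control 2. Prkcd, also among them, was at 794 CPM of the 1352 CPM in control 1. The 7 midbrain and hindbrain markers summed to 16.5 and 58.5 CPM in controls 1 and 2 against 5.72 to 18.5 CPM. The 5 cerebellar markers summed to 135.6 and 36.8 CPM against 30.3 to 38.6 CPM. For 8 striatal markers the sums were 253.0 and 104.4 CPM against 72.2 to 145.2 CPM, and for 7 astrocyte markers 1955 and 1859 CPM against 2258 to 3112 CPM. The sum of 8 oligodendrocyte markers was 6141 to 7540 CPM against 1973 to 4628 CPM. For 7 inhibitory neuron markers it was 608.8 and 853.1 CPM against 353.4 to 455.2 CPM. Of the markers fixed, Aqp4, Slc1a3, Hoxa2 and Tac1 were at 0 counts in every hippocampal library. Reads in sequence shared by several records were not counted, so 0 counts do not by themselves show that a gene was unexpressed. The part of these markers in the receptor values below was not tested, and in bulk tissue fewer cells of a type and less RNA per cell cannot be told apart.

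What the tables can show differed between the 9 genes. Reads were counted per transcript record, and a read that fell in sequence shared by several records of a gene was given to none of them. Gria1, Grik2, Grik4 and Grik5 had 1 record each and were counted over their whole length of 2698 to 3752 bases. The other 5 genes had 2 or 3 records each. For Grik1, which encodes the kainate subunit GluK1, the sequence not shared between its 3 records was 1 exon of 87 bases, and 11 reads were counted over all 7 hippocampal libraries. For Grik3, which encodes GluK3, it was 40 bases at the edge of 1 exon, and 0 reads were counted. The tables therefore give no level for Grik1 or Grik3. Of the 16 records, 11 passed the filter on low counts in hippocampus, and the 5 that did not were the 3 of Grik1 and the 2 of Grik3.

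For Gria2, Gria3 and Gria4 the counting left an exon readout. The 2 records of Gria2 differed in a single exon of 115 bases, exon 15 of 17, which lies in rn5 at chr2:198997800-198997914 in record NM_001083811 and at chr2:198997024-198997138 in NM_017261, on the minus strand. The records of Gria3 likewise differed in exon 14 of 16, at chrX:127897384-127897498 in NM_001112742 and chrX:127912230-127912344 in NM_032990, on the plus strand. In Gria4, exon 15 of 17 was at chr8:1554022-1554136 in NM_001113184 and at chr8:1548676-1548790 in NM_017263, on the minus strand. The remaining Gria4 record, NM_001113185, had 11 exons and ended in an exon of its own of 1224 bases at chr8:1603743-1604966. Each pair of 115-base exons is alternative in its records, as flip and flop are, but the sources used here do not say which of the 2 is flip, and they are called upstream and downstream in the direction of transcription.

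No record of an AMPA or kainate subunit passed in the comparison of VNS with control hippocampus, which asked whether receptor transcripts differed after stimulation. With edgeR's quasi-likelihood test, 0 of 11 tested records had an adjusted p under 0.05, as did 0% of all 12728 records tested. DESeq2 and limma-voom called 0 of 11 as well, where DESeq2 called 0.134% of all records. At an unadjusted p under 0.05 there were 3 of 11 with edgeR, against 12.1% of all records, 6 with DESeq2 (15.0% of all records) and 7 with limma-voom (14.8%). Fold changes were above 0 for 8 of the 11 records and below 0 for the 3 of Gria4, and over all records 6266 of 12728 were above 0 (median log2 fold change -0.0068). The median was 0.53 over the 8 AMPA records and 0.52 over the 3 kainate records tested.

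Gria1, which encodes GluA1, the subunit whose delivery to synapses is regulated in hippocampal potentiation, varied most between libraries. Its record NM_031608 (rn5 chr10:42257736-42571220, plus strand, 15 exons) stood at 41.6, 127.9 and 478.3 CPM in controls 1 to 3. The VNS libraries 1 to 4 stood at 705.3, 423.5, 477.5 and 568.2 CPM. Control library 3 lay inside the VNS range, and controls 1 and 2 lay far below it, so the groups overlapped. Controls averaged 215.9 ± 231.3 CPM (SD, n = 3) and VNS libraries 543.6 ± 123.2 CPM (SD, n = 4), with a log2 fold change of 1.33 (SE 0.69, edgeR adjusted p = 0.42). The highest library held 17.0 times the lowest, and 98.2% of 8681 symbols with a mean of at least 5 CPM had a smaller range on the log2 scale.

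Gria2 encodes GluA2, the subunit that makes AMPA receptors nearly impermeable to calcium. Summed over its exon pair, Gria2 was at 4.72, 7.95 and 28.2 CPM in controls 1 to 3, and at 37.5, 27.9, 15.9 and 28.2 CPM in VNS libraries 1 to 4. As for Gria1, controls 1 and 2 were the lowest and control 3 stood among the VNS libraries. The log2 fold change of the sum was 1.02 (SE 0.58, edgeR adjusted p = 0.44). The downstream exon had a value of 1.26 (SE 0.61, edgeR adjusted p = 0.41) and the upstream exon 0.89 (SE 0.58, edgeR adjusted p = 0.49).

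Gria3 encodes GluA3, which pairs with GluA2 in many forebrain receptors. Its summed reads were at 4.85, 2.65 and 11.0 CPM in controls 1 to 3 and at 13.7, 7.62, 7.52 and 8.47 CPM in VNS libraries 1 to 4 (log2 fold change 0.61, SE 0.46, edgeR adjusted p = 0.54). Its 2 exons did not follow one course. The downstream exon was lowest in controls 1 and 2, at 1.67 and 1.70 CPM against 3.46 to 10.4 CPM elsewhere. The upstream exon was at 3.18 CPM in control 1 and 0.94 CPM in control 2, and overlapped the 1.94 to 4.07 CPM of the other 5 libraries.

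Gria4 encodes GluA4, a subunit of fast AMPA receptors found in many interneurons and in thalamic and brainstem neurons, and it stood the other way round. Its summed reads were at 21.8, 33.0 and 16.7 CPM in controls 1 to 3 and at 16.0, 16.2, 9.76 and 11.7 CPM in VNS libraries 1 to 4. All 4 VNS libraries lay below all 3 controls, although control 3 and VNS library 2 differed by little. The control libraries averaged 23.8 ± 8.33 CPM (SD, n = 3) and the VNS libraries 13.4 ± 3.19 CPM (SD, n = 4). The log2 fold change was -0.81 (SE 0.27, edgeR adjusted p = 0.40). Most of these reads came from the 1224-base end of the short record NM_001113185, at 17.7, 30.8 and 15.4 CPM in controls and 8.54 to 14.8 CPM after VNS. That stretch lies inside the span of the longer Gria4 records but outside their exons, so reads of unspliced transcripts can fall there too. The summed value is therefore not a level of full-length Gria4 transcripts. Record NM_001113185 was the 1 of 11 receptor records whose groups did not overlap, against 9.28% of all records (4.67% with all VNS libraries above the controls and 4.61% below). The exon pair of Gria4 was near 1 CPM or below in most libraries, with 3.42 and 1.58 CPM of the upstream exon in controls 1 and 2.

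**Figure D1:**
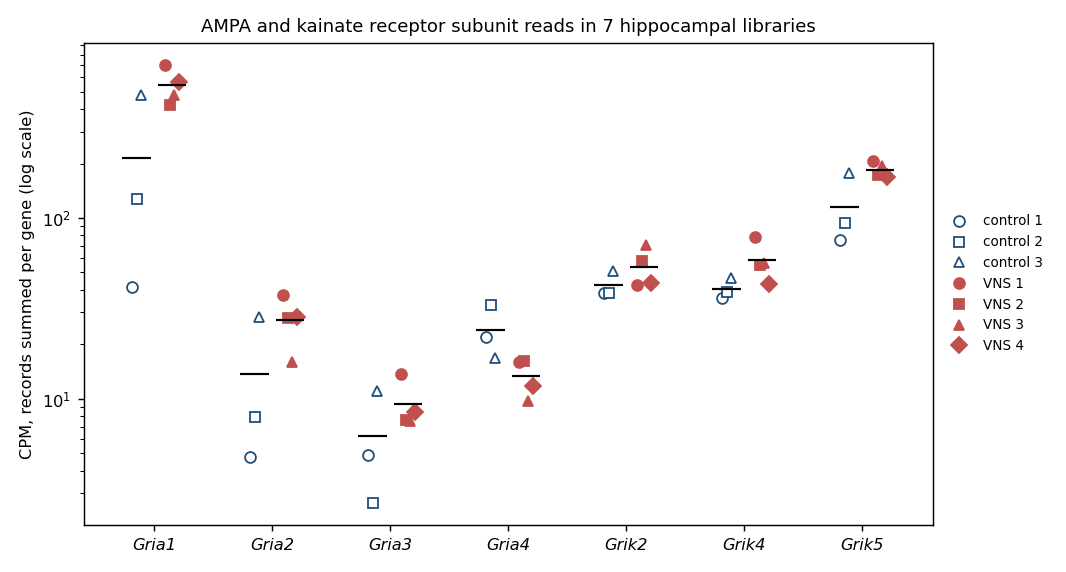
CPM of each receptor subunit gene (records summed, log axis) in the 3 control (open) and 4 VNS (filled) hippocampal libraries, with black bars at the arithmetic group means. Controls 1 and 2 lie below the other 5 libraries for Gria1, Gria2, Gria3, Grik2, Grik4 and Grik5 and above them for Gria4.

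Among kainate subunits, Grik5 encodes GluK5, which forms channels only together with GluK1, GluK2 or GluK3. Its record NM_031508 (rn5 chr1:83137815-83207039, minus strand, 20 exons) was at 75.2, 93.5 and 177.4 CPM in controls 1 to 3. The VNS libraries 1 to 4 stood at 205.5, 172.7, 194.7 and 168 CPM, a narrow range that held control 3 and not controls 1 and 2. The log2 fold change was 0.68 (SE 0.28, edgeR adjusted p = 0.40).

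Grik4 encodes GluK4, the other subunit that needs a partner, and is known for its abundance in CA3 pyramidal cells. Record NM_012572 (rn5 chr8:45279686-45581391, minus strand, 21 exons) was at 36.0, 38.8 and 46.7 CPM in controls 1 to 3 and at 78.3, 55.0, 56.1 and 43.2 CPM in VNS libraries 1 to 4. VNS library 1 was the highest, while VNS library 4 lay below control 3. The log2 fold change was 0.52 (SE 0.21, edgeR adjusted p = 0.40).

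Grik2 encodes GluK2, the kainate subunit of mossy fibre synapses onto CA3, and differed least between libraries. Record NM_019309 (rn5 chr20:55397877-56122315, minus strand, 16 exons) was at 38.2, 38.2 and 50.9 CPM in controls 1 to 3 and at 42.5, 57.6, 70.7 and 43.5 CPM in VNS libraries 1 to 4. The highest library, VNS 3, held 1.85 times the lowest, compared with 2.17 times for Grik4 and 2.73 times for Grik5. The log2 fold change was 0.33 (SE 0.21, edgeR adjusted p = 0.48).

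The promoters of 3 subunits are shown because their genes ordered the libraries differently, with Grik5 and Grik4 lowest and Gria4 highest in controls 1 and 2. The sequences are those of RefSeq on assembly GRCr8, on the minus strand and written in the direction of transcription, from 250 bases before to 50 bases after the annotated gene start. They lie at chr1:89794860-89795159 for Grik5, chr8:52102014-52102313 for Grik4 and chr8:10319832-10320131 for Gria4, and capitals mark matches to GGGCGG, the core of the GC box, on either strand.
Grik5 promoter: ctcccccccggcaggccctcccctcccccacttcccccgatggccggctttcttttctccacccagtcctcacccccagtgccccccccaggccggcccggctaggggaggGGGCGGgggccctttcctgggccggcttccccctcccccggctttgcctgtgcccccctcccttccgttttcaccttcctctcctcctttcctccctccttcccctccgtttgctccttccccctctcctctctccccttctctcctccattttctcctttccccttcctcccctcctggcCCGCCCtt
Grik4 promoter: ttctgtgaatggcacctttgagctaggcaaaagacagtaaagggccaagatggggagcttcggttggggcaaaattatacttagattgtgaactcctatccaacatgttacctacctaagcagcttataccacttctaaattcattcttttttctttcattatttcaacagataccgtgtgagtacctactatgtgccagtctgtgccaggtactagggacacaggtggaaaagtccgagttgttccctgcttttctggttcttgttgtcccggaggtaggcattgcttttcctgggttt
Gria4 promoter: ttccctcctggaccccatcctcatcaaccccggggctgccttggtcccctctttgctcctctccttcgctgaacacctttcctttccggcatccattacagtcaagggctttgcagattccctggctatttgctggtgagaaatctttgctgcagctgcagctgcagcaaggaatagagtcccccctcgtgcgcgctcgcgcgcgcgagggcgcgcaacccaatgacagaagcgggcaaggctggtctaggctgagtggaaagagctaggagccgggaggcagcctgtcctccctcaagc
The Grik5 window held 2 matches to GGGCGG and had a GC content of 69%, against 44% for Grik4 and 60.3% for Gria4 and a median of 51.7% over 33469 promoters of the same length. GGGCGG on either strand occurred in 33.1% of those promoters. The cAMP response element TGACGTCA, its own reverse complement, occurred in 1.83% of all promoters and the E-box CAGATG, on either strand, in 16.6%. Neither was in the 3 windows, which says only that these letters are not there. Of the 9 genes, 6 had a promoter entry, and Gria1, Gria2 and Gria3 did not.

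Levels of different genes were compared per length for the 4 single-record genes, as CPM per kb. Gria1 was highest after VNS at 201.5 ± 45.7 (SD, n = 4), followed by Grik5 at 49.4 ± 4.76, Grik4 at 17.6 ± 4.42 and Grik2 at 17.5 ± 4.37. The means of the last 2 did not differ beyond their spread. Within libraries, the ratio of Grik2 to Grik4 was 1.07 to 1.36 in 6 of 7 libraries and 0.59 in VNS library 1. Control means were 80.0 ± 85.7 for Gria1, 30.7 ± 14.5 for Grik5, 13.9 ± 2.39 for Grik2 and 12.2 ± 1.67 for Grik4 (SD, n = 3), and Gria1 and Grik5 did not differ there beyond the spread of Gria1. The ratio of Gria1 to Grik5 was 0.77 and 1.90 in controls 1 and 2 and 3.41 to 4.77 in the other 5 libraries, so Gria1 was not above Grik5 in control 1. Grik5 exceeded Grik2 and Grik4 in 7 of 7 libraries.

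**Figure D2:**
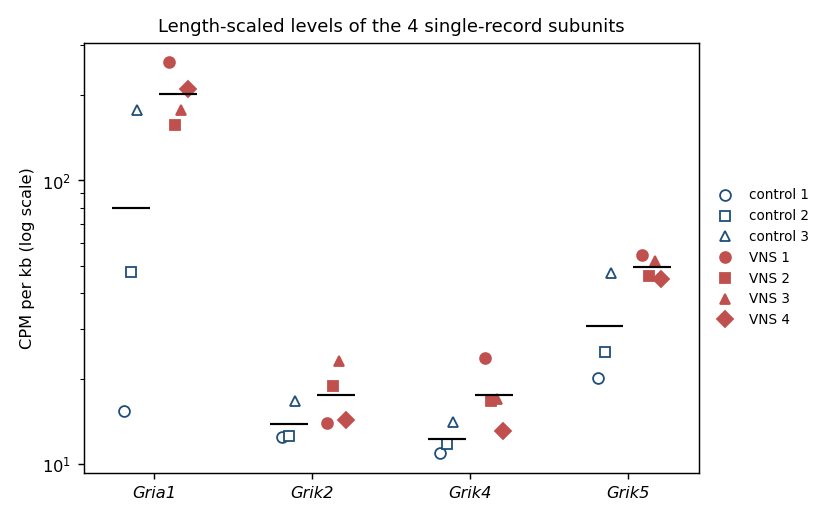
CPM per kb (log axis) of the 4 subunit genes with a single transcript record, by hippocampal library, with black bars at the arithmetic group means. Gria1 spans 15.4 to 261.4 over the 7 libraries, whereas Grik2 and Grik4 stay between 10.9 and 23.6.

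Reads of the subunits were described by 3 shares, taken per kb of sequence not shared between records. Kainate subunits made up 37.6%, 30.0% and 17.8% of all subunit reads in controls 1 to 3 and 15.9%, 20.4%, 24.4% and 16.0% in VNS libraries 1 to 4. The difference in means was -9.32 percentage points (exact permutation test, two-sided, p = 0.17, adjusted p = 0.34 over 3 shares). The share of Grik4 and Grik5 in kainate reads was 74.5 ± 3.80% in controls (SD, n = 3) and 78.7 ± 4.23% after VNS (SD, n = 4), a difference of 4.23 points (exact permutation test p = 0.23, adjusted p = 0.34). Gria2 made up 30.8 ± 2.92% of AMPA reads in controls and 31.8 ± 5.59% after VNS (exact permutation test p = 0.86 raw and adjusted). With 3 against 4 libraries the smallest p this test can give is 0.057. Gria4 made up 20.8% and 19.5% of AMPA reads in controls 1 and 2 and 2.13% to 3.45% in the other 5 libraries, and Gria1 21.4% and 40.8% against 48.7% to 62.0%. These shares leave out nearly all of Grik1 and Grik3, and for Gria2 and Gria3 they rest on 230 bases of exon each. A spliced transcript holds only 1 of the 2 exons behind those 230 bases, which lowers Gria2 and Gria3 against Gria1. For Gria4 most reads came from the 1224-base end of its short record. The shares are therefore not the make-up of receptor subunits.

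Use of the alternative exons differed between the 3 genes. In Gria2 the upstream exon held 68.1%, 61.5% and 64.3% of the reads of the pair in controls 1 to 3 and 52.2%, 60.3%, 51.3% and 67.5% in VNS libraries 1 to 4. The upstream exon held more than the downstream one in all 7 libraries. In VNS library 3 this was 40 against 38 reads, with a 95% Clopper-Pearson interval of 39.7% to 62.8% that spanned 50%. The mean was 64.6 ± 3.31% in controls (SD, n = 3) and 57.8 ± 7.65% after VNS (SD, n = 4), a difference of -6.81 points (exact permutation test, two-sided, p = 0.23, adjusted p = 0.34 over the 3 genes). VNS library 1, with 2533 reads of the pair, had a 95% Clopper-Pearson interval of 50.2% to 54.1%, below those of controls 1 to 3, the lowest of which began at 56.8%. VNS library 4, with 1140 reads, had one of 64.7% to 70.3%, which did not overlap that of VNS library 1.

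In Gria3 the downstream exon was the more used in 5 of 7 libraries. The upstream share was 65.5%, 35.6% and 31.5% in controls 1 to 3 and 24.1%, 25.5%, 54.1% and 34.5% in VNS libraries 1 to 4. Control 1 was the highest, with an interval of 59.1% to 71.6% from 238 reads, while VNS library 3 had 37 reads and an interval of 36.9% to 70.5%. The mean difference of -9.70 points did not exceed the spread (exact permutation test p = 0.40, adjusted p = 0.40), and without control 1 it was 0.96 points.

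In Gria4 the upstream exon held 83.6%, 71.9% and 75.8% in controls 1 to 3 and 66.9%, 62.1%, 66.7% and 76.1% in VNS libraries 1 to 4. It was the more used exon in all 7 libraries, on 201 reads of the pair in control 1 and 6 in VNS library 3. The difference was -9.15 points (exact permutation test p = 0.17, adjusted p = 0.34). These exon readings were taken up after the counts were seen. Intervals cover counting error only and treat each read as independent. Both reads of a pair could be counted, so the intervals can be too narrow. Unspliced transcripts hold both exons of a pair and are present in ribosome-depleted RNA, so a share of reads is not the share of spliced forms.

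**Figure D3:**
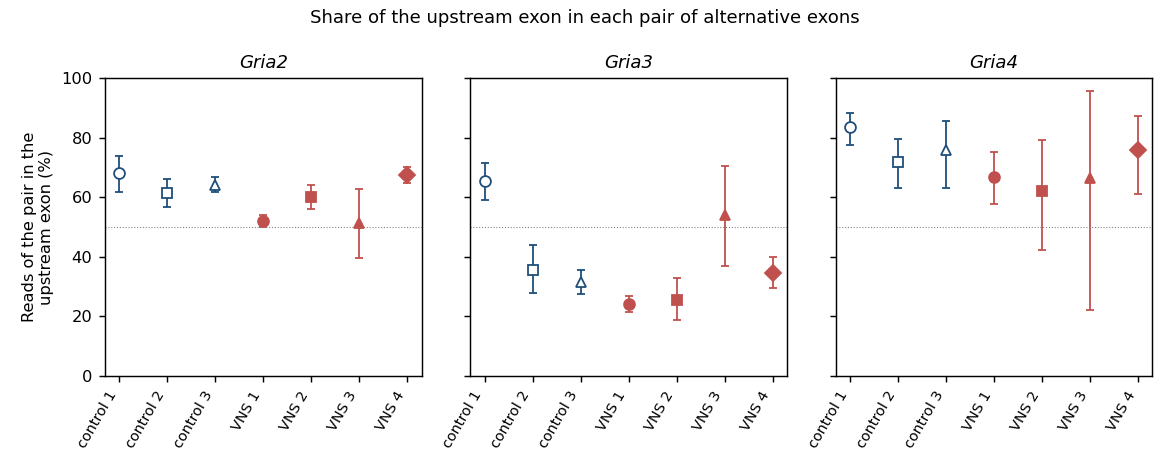
Percent of the reads of each 115-base exon pair that fell in the upstream exon, for Gria2, Gria3 and Gria4 in 3 control (open) and 4 VNS (filled) libraries. Bars are 95% Clopper-Pearson intervals, which are wide for VNS library 3 and narrow for VNS library 1, and the dotted line marks 50%.

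The size of the VNS differences varied with the control libraries used. Controls 1 and 2 lay below the other 5 libraries for 7 of 11 receptor records and above them for the 3 of Gria4, which makes 10 records without overlap, against 35.6% of all records (18.3% below and 17.3% above). Upstream Gria3 was the record that overlapped. Without control 3 the only controls left were 1 and 2, with Neurod6 at 0.65 and 1.05 CPM. In that fit VNS cannot be told apart from the difference in regional markers. In it 5 of 11 receptor records passed, all higher in the VNS libraries, against 10.6% of all records (6.24% higher and 4.41% lower). These were Gria1 (log2 fold change 2.68, edgeR adjusted p = 0.011), both exons of Gria2, the downstream exon of Gria3 (1.93, edgeR adjusted p = 0.028) and Grik5 (1.14, edgeR adjusted p = 0.0067). For Gria2 the upstream exon had a value of 2.00 and the downstream exon 2.35 (edgeR adjusted p = 0.014 and 0.015). Summed over its records, Gria4 passed in the lower direction (-1.01, edgeR adjusted p = 0.040), although none of its 3 records did.

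Without controls 1 and 2, 0 of 11 records passed with edgeR and 0 had an unadjusted p under 0.05, against 0.801% of all records. That fit rests on 1 control library, which is assumed to vary like the VNS libraries. Gria1 then had a log2 fold change of 0.18 (SE 0.29), Grik5 of 0.05 (SE 0.21) and Grik2 of 0.05 (SE 0.28). Of the 7 gene sums Grik4 had the highest value, 0.31 (SE 0.30), and Gria4 the lowest, -0.30 (SE 0.30). The sums of Gria2 (-0.023) and Gria3 (-0.23) were on the other side of 0.

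**Figure D4:**
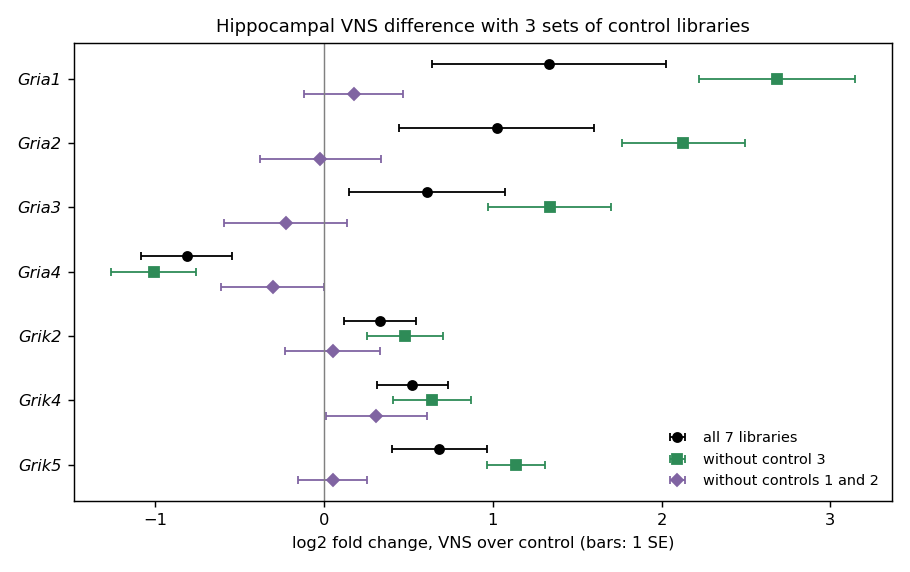
Log2 fold change of VNS over control hippocampus with 1 SE for each subunit gene (records summed), from fits with all 7 libraries, without control 3 and without controls 1 and 2. Gria1 moves from 1.33 to 2.68 without control 3 and to 0.18 without controls 1 and 2.

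Genes that act with these receptors were read from 4 lists, whose counts at an unadjusted p under 0.05 stand beside 12.1% of all records. Of the 12 AMPA receptor auxiliary subunits tested, 0 passed with edgeR (3 at an unadjusted p under 0.05), 7 had values above 0 and 5 below (median log2 fold change 0.72). Those with the smallest p were Prrt1 (1.52, SE 0.46), which helps keep a reserve of AMPA receptors outside synapses, Cnih2 (1.69, SE 0.62), a cornichon protein that slows channel closing, and Shisa6 (1.31, SE 0.54), which holds receptors at the synapse, each with an edgeR adjusted p = 0.40. Prrt1 was at 34.3, 33.8 and 58.0 CPM in controls 1 to 3 and at 99.6, 60.2, 234 and 90.6 CPM in VNS libraries 1 to 4. It was the 1 of 12 auxiliary genes whose VNS libraries all lay above the controls, against 4.67% of all records. Cnih2 was at 34.3 and 31.8 CPM in controls 1 and 2, at 163.3 CPM in control 3 and at 126.6 to 295.8 CPM after VNS. Cacng8, the transmembrane regulatory protein of hippocampal AMPA receptors, chosen after its values were seen, was at 10.2, 16.3 and 101.5 CPM in controls 1 to 3, while VNS libraries spanned 83.8 to 190.8 CPM. Controls 1 and 2 lay below the other 5 libraries for 7 of the 12 genes and above them for 2, against 18.3% and 17.3% of all records. The median was 0.22 without controls 1 and 2. Among the 5 kainate receptor auxiliary and binding genes, controls 1 and 2 lay below the other 5 libraries for 2 and above them for 0. For the 17 trafficking and scaffold records it was 6 below and 3 above, and for the 4 editing and splicing records 0 below and 2 above.

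Of 5 kainate receptor auxiliary and binding genes, 0 passed with edgeR (1 at an unadjusted p under 0.05), and 3 had values above 0 (median 1.24, and 0.0034 without controls 1 and 2). Neto1, which slows kainate receptor gating at mossy fibre synapses, was at 20.8, 22.5 and 89.7 CPM in controls 1 to 3 and at 167.2, 108.3, 155.1 and 75.3 CPM in VNS libraries 1 to 4 (1.51, SE 0.56, edgeR adjusted p = 0.40). C1ql3 (1.30, SE 0.90) and C1ql2 (1.24, SE 0.99) encode secreted proteins of mossy fibres that bind kainate receptors. C1ql3 was at 6.60, 6.05 and 96.2 CPM in controls 1 to 3, and its VNS libraries spanned 78.4 to 97.9 CPM. C1ql2, which is also among the dentate gyrus markers, was at 3.73, 9.33 and 44.9 CPM in controls 1 to 3, at 4.58 CPM in VNS library 1 and at 57.4 to 63.4 CPM in VNS libraries 2 to 4.

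**Figure D5:**
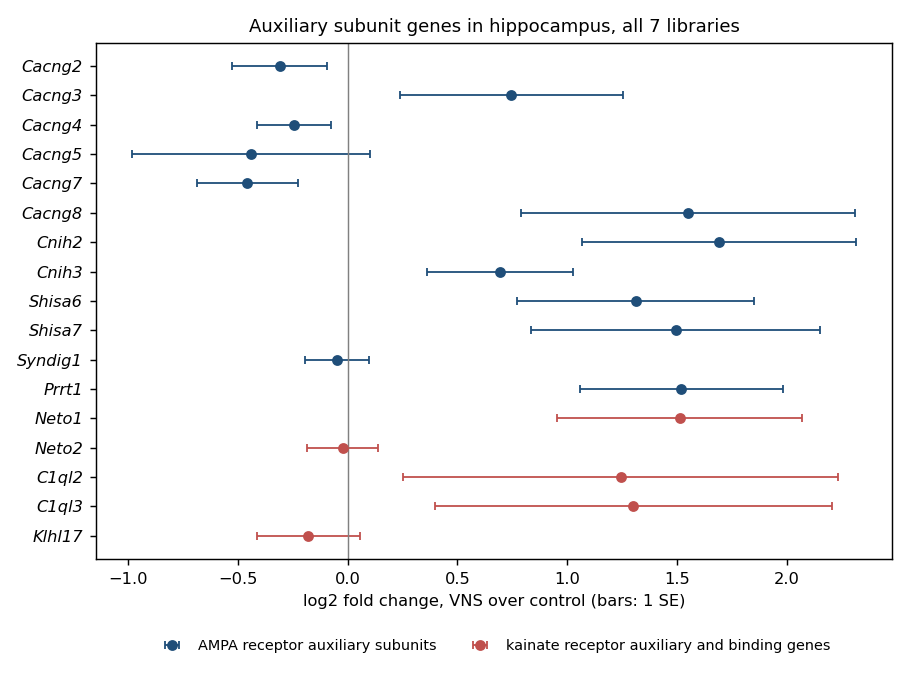
Log2 fold change of VNS over control hippocampus with 1 SE for 12 AMPA receptor auxiliary subunit genes and 5 kainate receptor auxiliary and binding genes, all 7 libraries. Values run from -0.46 for Cacng7 to 1.69 for Cnih2, and 0 of the 17 genes passed.

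Of 17 tested records of AMPA receptor trafficking and scaffold genes, 0 passed with edgeR (5 at an unadjusted p under 0.05), with 11 above 0 and 6 below (median 0.07). The smallest p belonged to genes with lower values after VNS: 1 of 2 records of Epb41l1 (-1.90, SE 0.51), a cytoskeletal linker of GluA1, Sacm1l (-0.77, SE 0.22), a phosphoinositide phosphatase, and Grip2 (-1.35, SE 0.39), a scaffold that binds the tails of GluA2 and GluA3. Grip2 was at 59.1, 74.5 and 25.6 CPM in controls 1 to 3 and at 13.9 to 30.5 CPM after VNS. Of 4 tested records of editing and splicing genes, 0 passed (1 at an unadjusted p under 0.05, median -0.65). Nova1, a neuronal splicing factor, had a value of -0.97 (SE 0.33), Adarb2 of -1.17 (SE 0.55, with 99.4 CPM in control 1 and 14.8 to 25.2 CPM elsewhere) and the RNA editing enzyme gene Adar of -0.33 (SE 0.17). Adarb1, the enzyme that edits the Gria2 transcript at the site controlling calcium entry, had 4 records with 0 counts and was not tested. Reads in sequence shared by several records were not counted, so these 0 counts do not give its level. Without controls 1 and 2 the medians of these 2 lists were 0.0018 and -0.05. The fit without control 3 has only controls 1 and 2 as controls, and 10.6% of all records passed in it. There 5 of 12 AMPA receptor auxiliary, 2 of 5 kainate receptor auxiliary, 6 of 17 trafficking and 1 of 4 editing and splicing records passed.

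The genes whose pattern over the 7 hippocampal libraries was most like each subunit were found by the root mean square difference of centred log2 CPM among 8680 symbols. For Gria1 they were Scn3b (0.17) and Mpped1 (0.20), for Gria2 Ddo (0.15) and Adra2c (0.21), and for Gria3 Dyrk2 (0.11) and Fkbp1a (0.14). For Gria4 they were Fat3 (0.15) and Lrrc75b (0.15). For Grik2 they were Prrx1 (0.07) and Fgd6 (0.08), for Grik4 Ddx49 (0.10), and for Grik5 Septin3 (0.07) and B3gat1 (0.08). Scn3b, a sodium channel beta subunit, stood at 40.2, 99.7 and 405.9 CPM in controls 1 to 3, with 326.8 to 781 CPM in VNS libraries. The points behind such likeness are 7 libraries that share the distance of controls 1 and 2 from the rest.

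In cortex the subunits were close to unread. Libraries held 329130 to 435296 counts, and over all 8 libraries Grik5 had 387 counts, Gria1 65, Gria4 25, Grik2 14, Gria2 and Grik4 10 each, Gria3 1, and Grik1 and Grik3 0. Grik5 was the 1 member tested. It had 30, 58, 38 and 43 counts in controls 1 to 4 and 40, 58, 48 and 72 in VNS libraries 1 to 4, and the groups overlapped. The log2 fold change was 0.37 (SE 0.27, edgeR adjusted p = 0.9998), and 1 of 3884 cortex records passed (0.0257%). Reads there were counted with strand option 1 from a kit that marks strand, and whether that option matches the kit's orientation was not tested. These counts are therefore not read as the genes' levels. Gria1, with at most 17 counts in a library, could not be read as higher or lower. Whether depth or the strand option kept these counts low was not tested.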

How the data were processed

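RNA was sequenced from 15 rat libraries with a stranded kit and paired reads, per the labels' protocols. The deposited values are raw read counts for each RefSeq record from featureCounts 1.4.6-p2, per the file headers, in rn5 coordinates, with strand option 1 in cortex, no strand option in hippocampus, and no option to count read pairs as fragments or to use reads shared by records. Bowtie2, Trimmomatic, FastQC 0.10.1, edgeR, Subread and SAMtools 0.1.19 are in the submitters' processing notes, without settings. A RefSeq table of assembly GRCr8 gave symbols to 17339 of 18278 records. The name of 1 cortex column carries an extra final letter beside its sample's label.

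Records were kept by filterByExpr (minimum count 10, minimum total 15), scaled by TMM and tested within each tissue with edgeR 4.0.16 (glmQLFit and glmQLFTest, two-sided, Benjamini-Hochberg over all records, threshold 0.05) in R 4.3.3. DESeq2 1.42.0 and limma 3.58.1 were alternatives, and the tests were checked on simulated data. The scaling of the kept records also gave CPM. Sequence not shared between records was computed from the exon coordinates in the files. No 2 libraries were duplicates (smallest chi-square per degree of freedom 3.12 in cortex and 24.2 in hippocampus). Named genes were all records of the 9 genes, the 3 of smallest p in each list, region markers, and the 2 symbols most alike in pattern, with a mean of at least 5 CPM. 1 list and 1 of the genes most alike in pattern are not reported here. The members, lists and the leaving out of controls 1 and 2 were chosen with earlier results of these data known.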

Additional observations from a re-analysis of the deposited data

Results flagged for a closer look

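In VNS hippocampus, library 1 stood far above the others for 2 values: the summed reads of Gria3, at 13.7 CPM against 7.52 to 8.47 CPM, and the upstream exon of Gria4, at 1.17 CPM against 0.81 to 0.87 CPM. The gap to the next library was 0.845 and 0.83 of the whole range of the 4 libraries. Chance flags about 1 in 20 groups, and 24 groups of 4 libraries were checked. VNS library 1 was the deepest hippocampal library.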

How the results depend on the processing

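The 0 hippocampal records that passed became 17 with DESeq2, 0 to 1377 over fits without 1 library (1377 without control 3, 0 in the other 6), and 0 without controls 1 and 2. In cortex 1 passed, with 5 under no filter, 6 with the 1 CPM filter, 0 with limma-voom, and 0 to 4 without 1 library (4 without control 1, 0 without VNS library 1 or 4 or control 2, 3 or 4). Over 234 alternative values of subunit fold changes, 218 kept direction and call and 9 passed without control 3. The other 7 reversed: without controls 1 and 2, upstream Gria2 was at -0.16, upstream Gria3 at -0.23, downstream Gria3 at -0.22, downstream Gria4 at 0.53, and the sums of Gria2 and Gria3 at -0.023 and -0.23, while upstream Gria3 spanned -0.15 (without control 2) to 0.54 without 1 library. The Gria2 share difference of 0.9995 points was -0.55 with annotated lengths, -0.86 with raw counts, -2.30 without controls 1 and 2 and -0.93 to 3.54 without 1 library. The kainate share difference of -9.32 points was -18.2 with annotated lengths, -16.6 with raw counts, 1.31 without controls 1 and 2 and -14.6 to -4.76 without 1 library (-14.6 without control 3 and -4.76 without control 1). That of Grik4 and Grik5, 4.23 points, was 0.064 without controls 1 and 2 and 2.47 to 6.31 without 1 library. The upstream share of Gria3 differed by 3.01 without controls 1 and 2 and by -16.2 to 0.96 without 1 library, that of Gria2 by -10.1 to -4.63 and that of Gria4 by -11.9 to -5.91. The causes were not tested. No paired analysis was possible because the labels give no replicate numbers shared between groups. Low counts limit the Gria4 exon pair, with 6 reads in VNS library 3, and every cortex value.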
